A study of Saccharomyces cerevisiae with 2 samples.

Results

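The genes described here encode the enzymes of upper glycolysis, from the phosphorylation of glucose to the cleavage of fructose 1,6-bisphosphate. They were chosen by name for their place in the pathway, with earlier results of these data known, and all 10 were found among the 6716 genes measured. They are HXK1, HXK2, GLK1 and EMI2 for hexose phosphorylation, PGI1 for the isomerase, PFK1 and PFK2 for phosphofructokinase, FBA1 for aldolase, and PFK26 and PFK27 for 6-phosphofructo-2-kinase. Every one of them was detected in both libraries, with 68 to 106417 fragments in BY4741 and 128 to 48345 in the rice wine strain.

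The study compared the transcriptome of a Chinese rice wine (Huangjiu) strain with that of the laboratory strain BY4741 by RNA-Seq, with 1 library of polyA RNA for each. The rice wine strain is wild type in the labels, which name it YHJ8, and it is YHJ7 in the paper, a haploid obtained by sporulation of an isolate from a fermentation. BY4741 is a MATa strain related to the reference S288c, and the labels list his△1 as well as leu2△0, lys2△0 and ura3△0. Both strains were grown in 25 mL of YPD, a rich medium with glucose, from an OD600 of 0.05 and collected in early stationary phase. For both strains the labels give 1 g/L yeast extract, 2 g/L peptone and 2 g/L glucose. The YPD recipe in the paper differs from this. A library is a pool of 2 cultures, so the data hold no replicate values, no p-value can be given, and every error below is counting error. How much glucose remained in the medium is not given in the sources used here, and strain and culture state cannot be told apart.

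The strain of a library was taken from its column headings, which name the opposite strain to that of the sample they are filed under. In the library headed BY4741, no fragment fell on LEU2, URA3 or MET17 (0 each), and in the other these genes had 473, 768 and 240 fragments. LYS2, by contrast, had 1348 fragments in the library headed BY4741 and 830 in the other, which goes against the labelled lys2△0. HIS3 had 548 and 715 fragments. "BY4741" below means the library with that heading. The depths were 10218976 fragments on genes in BY4741 and 8168419 in the rice wine strain. All fragment numbers here are inferred from the steps between the estimated counts. With the steps of the highest share of whole multiples, 0.398 and 0.313, they would be larger and the rice wine library would be the deeper. The paper, however, reports fewer RNA-Seq reads in total than the rice wine library would then hold. Expression is given as FPKM, a fragment number divided by the exon length and by a library factor, so that levels can be compared between genes. With the deposited factors the libraries did not have equal totals. Bringing gene counts to the same total lowers every log2 ratio by 0.33.

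Glucose enters glycolysis when a hexokinase or glucokinase turns it into glucose 6-phosphate. In laboratory yeast Hxk2 is the main enzyme during growth on abundant glucose and also takes part in glucose repression with the repressor Mig1, whereas HXK1 and GLK1 are repressed by glucose and are used when it runs low. Phosphofructokinase is the regulated step that follows, and its activator fructose 2,6-bisphosphate is made by Pfk26 and Pfk27.

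The hexokinase genes HXK1 and HXK2 are the pair in which the libraries differed most, so the reference sequence upstream of both is shown first, with that of GLK1. The stretches are from S288c (sacCer3) and run 5′ to 3′ on the strand of the gene. Capitals mark matches, on either strand, to 3 motifs. They are AGGGG, the stress response element (STRE) bound by Msn2 and Msn4, CTTCC, the core bound by the glycolytic activator Gcr1, and GCGGGG or CTGGGG or CCGGGG or GTGGGG, the core bound by Mig1. The HXK1 and HXK2 stretches cover 500 to 201 bases before the start codon, at chrVI:255250-255549 on the minus strand and chrVII:23435-23734 on the plus strand. That of GLK1 covers 240 to 141 bases before it, at chrIII:50598-50697 on the plus strand.
HXK1: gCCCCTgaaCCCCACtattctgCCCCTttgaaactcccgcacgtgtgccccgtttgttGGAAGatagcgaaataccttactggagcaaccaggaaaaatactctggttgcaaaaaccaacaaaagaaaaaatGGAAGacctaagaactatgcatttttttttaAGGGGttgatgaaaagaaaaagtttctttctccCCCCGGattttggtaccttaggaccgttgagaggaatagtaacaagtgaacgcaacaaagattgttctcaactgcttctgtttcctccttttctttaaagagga
HXK2: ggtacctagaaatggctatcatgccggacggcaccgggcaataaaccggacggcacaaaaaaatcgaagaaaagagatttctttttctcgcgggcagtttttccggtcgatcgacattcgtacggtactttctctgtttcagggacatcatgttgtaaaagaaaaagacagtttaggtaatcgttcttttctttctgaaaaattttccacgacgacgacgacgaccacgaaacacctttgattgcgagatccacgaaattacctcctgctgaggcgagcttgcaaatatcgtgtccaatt
GLK1: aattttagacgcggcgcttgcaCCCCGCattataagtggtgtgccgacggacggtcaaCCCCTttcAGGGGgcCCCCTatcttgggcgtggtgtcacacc

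In the window from 500 to 101 bases before the start codon, HXK1 had 3 STRE, 3 Gcr1 and 2 Mig1 core matches. HXK2 had no match to any of the 3 in that window. GLK1 had 3 STRE matches, all between 182 and 163 bases before the start, and 1 Mig1 core match. Its paralogue EMI2 had 2 STRE, 2 Gcr1 and 1 Mig1 core matches. Among the other members, PFK26 had 1 STRE and 1 Gcr1 match and PFK27 had 1 Gcr1 and 1 Mig1 core match, while PGI1, PFK1 and PFK2 had 2 Gcr1 matches each and FBA1 had none of the 3 motifs. In the same window of 6000 nuclear protein-coding genes, 29.2% held a STRE, 58.7% a Gcr1 and 20.5% a Mig1 core match, and 1.42% held 3 or more STRE matches. The motifs do not overlap each other in the stretches shown. These letters are those of the reference, the sequence of the rice wine strain was not used, and a match is not evidence of binding.

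**Figure D1:**
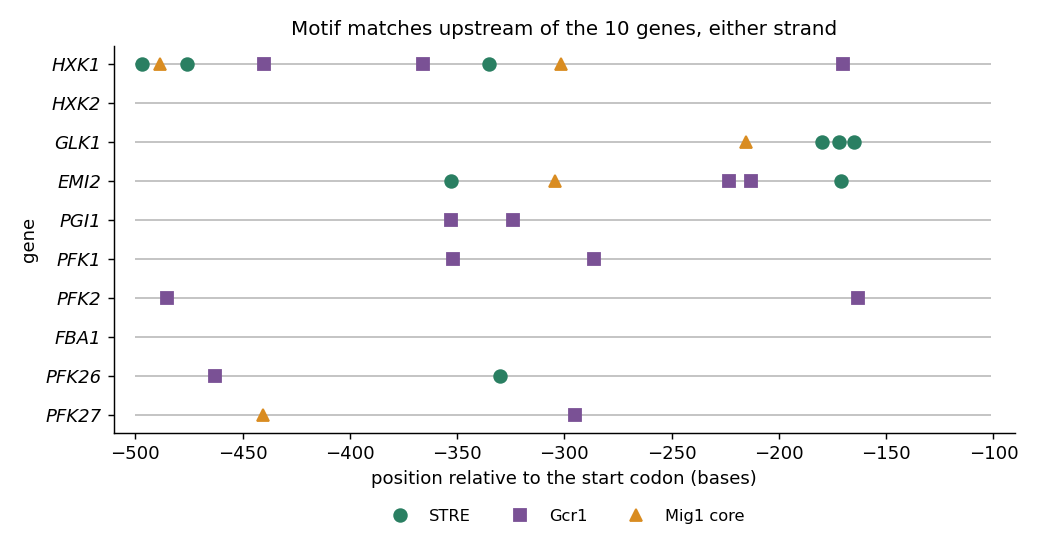
Matches to the STRE, Gcr1 and Mig1 core motifs between 500 and 101 bases before the start codon of the 10 genes in the reference, with 1 line per gene and the position in bases on the horizontal axis. STRE matches lie upstream of HXK1, GLK1, EMI2 and PFK26, and the lines of HXK2 and FBA1 are empty.

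HXK1 and HXK2 differed in opposite directions between the strains. HXK1 (YFR053C, chrVI:253592-255049) stood at 218.8 FPKM in BY4741 and at 57.3 in the rice wine strain. These values rest on 3565 and 593 fragments, and HXK1 was 3.82-fold lower in the rice wine strain, with a 95% counting interval from 3.50 to 4.17. HXK2 (YGL253W, chrVII:23935-25395) stood at 89.4 FPKM in BY4741 and at 264.3 in the rice wine strain, from 1461 and 2746 fragments. It was 2.96-fold higher in the rice wine strain, with an interval from 2.77 to 3.15. On the log2(FPKM + 1) scale used for all genes, the differences of rice wine strain minus BY4741 were -1.92 for HXK1 and 1.55 for HXK2. Of all 6716 genes, 3.93% had a difference lower than that of HXK1, and 5.42% had one higher than that of HXK2.

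The balance within this pair does not depend on how the libraries are scaled to each other. The FPKM of HXK1 was 2.45-fold that of HXK2 in BY4741, and that of HXK2 was 4.62-fold that of HXK1 in the rice wine strain. The log2 ratio of HXK1 to HXK2 thus went from 1.29 ± 0.045 to -2.21 ± 0.065 (counting SE), a change of -3.50 with an interval from -3.65 to -3.34. Both genes are of nearly equal coding length, 1458 and 1461 bases, and 77.8% of 1458 aligned positions are identical in the reference. Their longest identical run in the coding sequence has 23 bases, from base 247 of either gene (chrVI:254781-254803, minus strand, and chrVII:24181-24203, plus strand), and is shown because fragments read wholly inside it cannot be told apart.
shared run of HXK1 and HXK2: ttggccattgatttgggtggtac

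GLK1 was by far the most abundant of the 4 hexose-phosphorylating genes in both libraries. GLK1 (YCL040W, chrIII:50838-52340), which encodes glucokinase, stood at 2533 FPKM in BY4741 and at 3559 in the rice wine strain. It ranked at position 123 of all genes in the first library and at position 103 in the second. It was 1.41-fold higher in the rice wine strain, with a counting interval from 1.39 to 1.42, and its log2 difference of 0.49 was 0.16 with equal gene-count totals. EMI2 (YDR516C, chrIV:1474974-1476476), its paralogue, which is needed for early induction of the meiotic regulator gene IME1, stood at 104.2 FPKM in BY4741 and at 142.9 in the rice wine strain. It was 1.37-fold higher, with an interval from 1.28 to 1.47, and its log2 difference of 0.45 was 0.12 with equal gene-count totals.

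GLK1 and EMI2 kept close to the same ratio, unlike HXK1 and HXK2. Their log2 ratio was 4.60 ± 0.035 in BY4741 and 4.64 ± 0.038 in the rice wine strain (counting SE), a change of 0.035 with an interval from -0.065 to 0.14. The coding sequences are identical at 69.0% of 1499 aligned positions, with no identical run over 15 bases.

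Summed over the 4 genes, the FPKM was 2945 in BY4741 and 4024 in the rice wine strain, 1.37-fold higher, or 1.09-fold higher with equal gene-count totals. GLK1 made up 86.0% of this sum in BY4741 (interval from 85.7 to 86.3) and 88.5% in the rice wine strain (from 88.2 to 88.8). HXK1 took 7.43% and 1.42%, and HXK2 took 3.04% and 6.57%. The share of EMI2 was 3.54% and 3.55%. Most hexose-phosphorylating transcript was thus that of glucokinase in either strain, and within the small remainder HXK1 led in BY4741 and HXK2 in the rice wine strain.

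**Figure D2:**
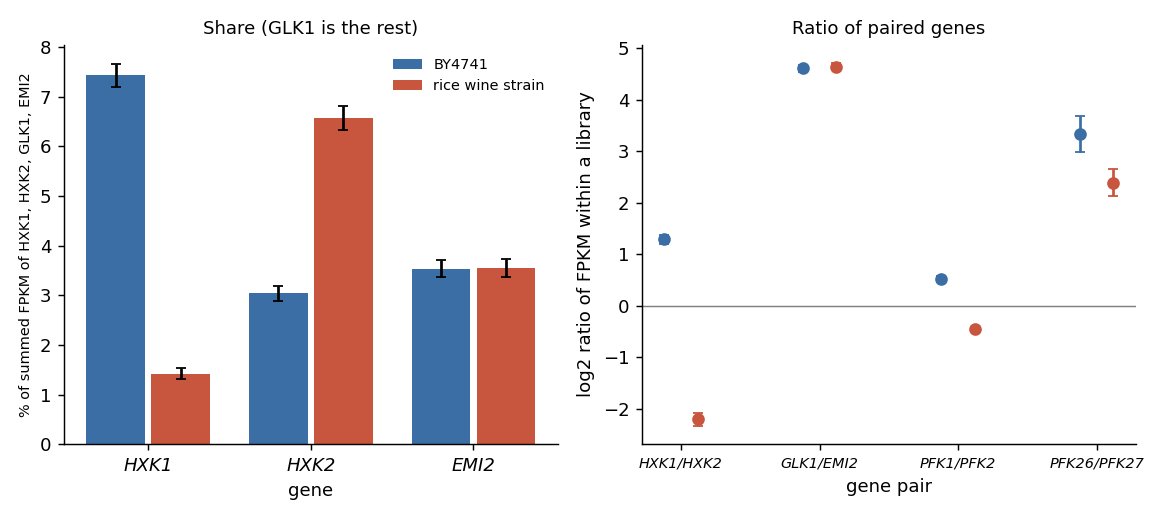
Left, the percent of the summed FPKM of HXK1, HXK2, GLK1 and EMI2 held by the 3 less abundant genes, with 95% counting intervals. Right, the log2 ratio of FPKM for 4 gene pairs within each library, with 95% counting intervals. HXK1 to HXK2 and PFK1 to PFK2 lie on opposite sides of 0 in the 2 libraries, while GLK1 to EMI2 stays near 4.6.

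PGI1 (YBR196C, chrII:612236-613900), phosphoglucose isomerase, converts glucose 6-phosphate into fructose 6-phosphate. Its FPKM was 762.7 in BY4741 and 846.5 in the rice wine strain, from 14476 and 10217 fragments. The 1.11-fold difference was the smallest of the 10 genes, and its direction turned once gene counts, or FPKM values, were made to sum to the same total in both.

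The phosphofructokinase subunit genes differed unequally. PFK1 (YGR240C, chrVII:970771-973734) encodes the alpha subunit and PFK2 (YMR205C, chrXIII:671887-674766) the beta subunit of the enzyme that forms fructose 1,6-bisphosphate. PFK1 stood at 184.8 FPKM in BY4741 and at 224.9 in the rice wine strain, 1.22-fold higher with an interval from 1.17 to 1.26, although scaling to the same total of gene counts turned this direction. PFK2 stood at 129.5 FPKM in BY4741 and at 309.7 in the rice wine strain, 2.39-fold higher with an interval from 2.30 to 2.48. With the scaling to the same total its log2(FPKM + 1) difference was 0.92 in place of 1.25.

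PFK1 was 1.43-fold above PFK2 in BY4741, and PFK2 was 1.38-fold above PFK1 in the rice wine strain. The log2 ratio of PFK1 to PFK2 changed by -0.97, with an interval from -1.05 to -0.90. In the reference 66.0% of 2780 aligned coding positions are identical.

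FBA1 (YKL060C, chrXI:326408-327487), the only aldolase among the members, cleaves fructose 1,6-bisphosphate and also works in the reverse direction in gluconeogenesis. It had the highest FPKM of the 10 genes, 9341 in BY4741 and 6672 in the rice wine strain, from 106417 and 48345 fragments. Apart from HXK1 it was the only member lower in the rice wine strain with the deposited scaling, by 1.40-fold with an interval from 1.38 to 1.42, and it was lower under every alternative computed.

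The genes for 6-phosphofructo-2-kinase were both higher in the rice wine strain, and PFK27 was the least abundant member in either library. PFK26 (YIL107C, chrIX:163278-165761) stood at 53.2 FPKM in BY4741 and at 81.9 in the rice wine strain, 1.54-fold higher with an interval from 1.44 to 1.65. PFK27 (YOL136C, chrXV:67561-68754), which in laboratory yeast is induced by glucose, stood at 5.28 FPKM in BY4741 and at 15.6 in the rice wine strain, from 68 and 128 fragments. PFK27 was 2.96-fold higher, and its interval from 2.21 to 3.97 was the widest of the members. PFK26 exceeded PFK27 by 10.1-fold in BY4741 and by 5.24-fold in the rice wine strain. Their log2 ratio changed by -0.94 with an interval from -1.38 to -0.51.

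Ordered by FPKM, the members ran FBA1, GLK1, PGI1, HXK1, PFK1, PFK2, EMI2, HXK2, PFK26 and PFK27 in BY4741. In the rice wine strain the order was FBA1, GLK1, PGI1, PFK2, HXK2, PFK1, EMI2, PFK26, HXK1 and PFK27. HXK1 moved from position 4 to 9 and HXK2 from position 8 to 5, whereas the first 3 and the last positions were held by the same genes. Neighbours in either order differed beyond counting error, the closest being EMI2 and HXK2 in BY4741, with a log2 ratio of 0.22 and an interval from 0.12 to 0.32. Whether any of these steps exceeds the spread between cultures was not tested. The 10 genes together held 0.662% of the summed FPKM of all genes in BY4741 and 0.518% in the rice wine strain.

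**Figure D3:**
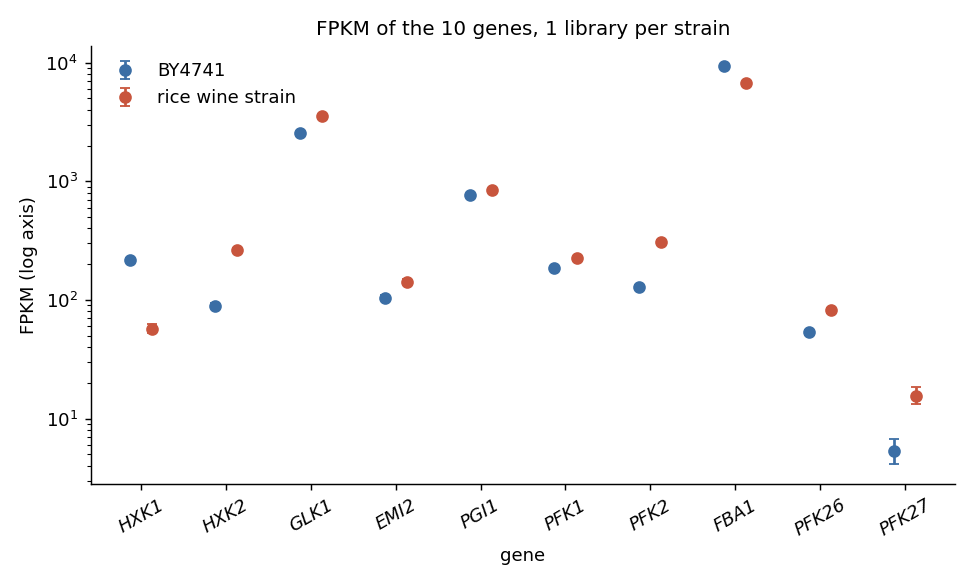
FPKM of the 10 genes on a log axis, in BY4741 (blue) and the rice wine strain (red), with 95% counting intervals that are mostly smaller than the points. HXK1 goes from 218.8 to 57.3 between the libraries and HXK2 from 89.4 to 264.3, while FBA1, GLK1 and PGI1 stay the highest in both.

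On the log2(FPKM + 1) scale, HXK2, PFK2 and PFK27 (3 of the 10 genes) exceeded BY4741 by 2-fold or more in the rice wine strain, as did 12.4% of all genes. HXK1 (1 of 10) was lower by 2-fold or more, as were 9.84% of all genes. The other 6 members differed by less than 2-fold, and no member differed by 4-fold with the deposited scaling, although HXK1, at -1.92, reached -2.24 with equal gene-count totals and -2.13 with equal summed FPKM. The median difference of the members was 0.47, beside 0 over all genes. When gene counts were brought to the same total, which lowers every log2 ratio by 0.33, the median of the members was 0.14 and PFK2 dropped below 2-fold. With the same summed FPKM, which lowers every log2 ratio by 0.21, it was 0.26. HXK1, HXK2 and PFK27 stayed beyond 2-fold under each of the 6 alternative settings.

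**Figure D4:**
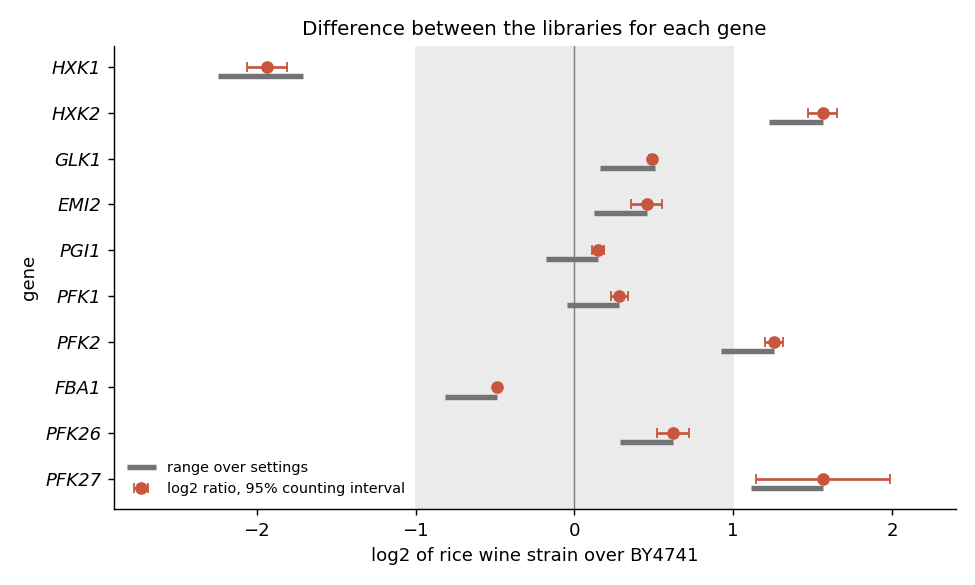
The log2 ratio of the rice wine strain over BY4741 for each gene (points, with 95% counting intervals) and the range of the log2 difference over the main and 6 alternative settings (grey bars). The shaded band marks less than 2-fold. HXK1 lies to its left, HXK2 and PFK27 lie to its right over their whole range, and the bars of PGI1 and PFK1 cross 0.

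For 8 of the 10 genes the locus in the files equals the annotated coding region. HXK1 and GLK1 lie in loci that the files join with other genes. HXK1 shares its locus with YFR052C-A, which had 184 and 44 fragments in BY4741 and the rice wine strain, few beside those of HXK1. GLK1 shares its locus with PDI1, YCL041C and YCL042W. YCL042W had 2036 and 1951 fragments and a log2 ratio of 0.59, PDI1 had 8356 and 3971 fragments and a log2 ratio of -0.42, and GLK1 had 42751 and 38207 fragments. The sources used here do not say that strand was used in counting, so reads of overlapping genes may be divided between them. The FPKM values per strain in the authors' table of comparisons, where HXK1 and GLK1 are joined with other genes, gave differences of -1.71 for HXK1, 1.49 for HXK2 and 0.51 for GLK1.

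The genes of lower glycolysis, which take triose phosphate to pyruvate, were mostly lower in the rice wine strain. Of the 12 genes, 10 had a lower value and 2 a higher one, 2 were lower by 2-fold or more and none was higher by as much, and the median difference was -0.52. Over all genes 49.2% had a lower value, and 9.84% were lower by 2-fold or more. With equal gene-count totals or equal summed FPKM, 4 of the 12 were lower by 2-fold or more, as were 1070 and 883 of the 6716 genes. GPM1, the major phosphoglycerate mutase, stood at 5660 FPKM in BY4741 and at 1029 in the rice wine strain, a log2 ratio of -2.46. CDC19, the main pyruvate kinase, had 1408 and 434, a log2 ratio of -1.70. For GPM1 and CDC19 the locus does not equal the annotated coding region. Their differences in the authors' table of comparisons, where GPM1 shares a locus, were -2.28 and -1.79. TDH3, the most abundant glyceraldehyde phosphate dehydrogenase gene and the highest of the list, had 15727 and 11979. The 2 higher genes were PYK2, the minor pyruvate kinase that glucose represses, and GPM3, a mutase homologue. PYK2 had 59.8 and 81.3 FPKM. GPM3 had 10.5 and 12.1 FPKM, a difference within counting error, with an interval of the log2 ratio from -0.24 to 0.64. GPM3 turned lower with either rescaling, and the difference of PYK2 was -0.0058 in the authors' table of comparisons, where it shares a locus. FBA1 differed in the same direction as most of these genes, and the other members of the upper part, apart from HXK1, did not with the deposited scaling.

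Among 5 genes whose enzymes oppose glycolysis, FBP1 was at least 2-fold lower in the rice wine strain, as were 9.84% of all genes. FBP1, fructose-1,6-bisphosphatase, reverses the phosphofructokinase step and stood at 3724 FPKM in BY4741 and at 1472 in the rice wine strain, a log2 ratio of -1.34. FBP1 was thus 11.8-fold above the sum of PFK1 and PFK2 in BY4741 and 2.75-fold above it in the rice wine strain. FBP26, which breaks down fructose 2,6-bisphosphate, had 110.4 and 74.9 FPKM, opposite in direction to PFK26 and PFK27. Of the 5 genes, 3 were lower in the rice wine strain and 2 were higher. The higher ones were PYC1, with 628.9 and 864.3 FPKM, and PYC2, with 100.7 and 161.5. PCK1, the gluconeogenic phosphoenolpyruvate carboxykinase, was the highest of the list with 8948 and 7301 FPKM. The list median was -0.29.

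Of 6 genes at branches of the hexose phosphates, GFA1, which draws fructose 6-phosphate into glucosamine and chitin synthesis, stood at 33.8 FPKM in BY4741 and at 166.7 in the rice wine strain, a log2 ratio of 2.30. The other 5 differed by less than 2-fold, and 12.4% of all genes were higher by 2-fold or more. TPS1, trehalose 6-phosphate synthase and the highest of the list, had 589.8 and 385.5 FPKM. The list median was -0.17.

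A list of 10 regulatory genes held regulators of glycolytic genes and of glucose repression together with IME1, the inducer of meiosis, which is not one of them. IME1 exceeded 2-fold upwards, as did 12.4% of all genes, and GCR1 downwards, as did 9.84%. The median difference was -0.042. GCR1, the activator of glycolytic genes, stood at 16.7 FPKM in BY4741 and at 5.79 in the rice wine strain, from 467 and 103 fragments. IME1 had 32.9 and 101.0 FPKM. TYE7, a glycolytic activator and the highest of the list, had 194.7 and 195.0 FPKM. MIG1, the gene of the repressor, had 60.8 and 57.3 FPKM. Whether the activity of Mig1 differed between the strains was not tested.

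**Figure D5:**
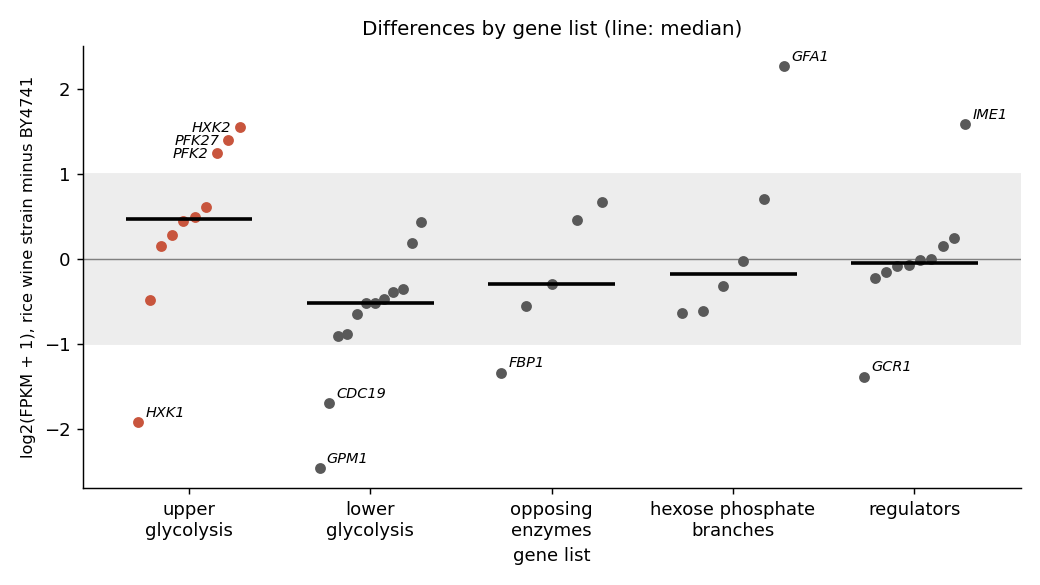
The log2(FPKM + 1) difference of the rice wine strain minus BY4741 for each gene, by list, with the list median as a line and genes at least 2-fold apart named. The upper glycolysis genes spread from -1.92 to 1.55 with a median of 0.47, and the lower glycolysis genes from -2.46 to 0.44 with a median of -0.52.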

How the data were processed

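PolyA RNA from a pool of 2 cultures was sequenced once for each strain. Reads were aligned by the authors to S288c (sacCer3) using TopHat 2.0.4, and Cufflinks 2.0.2 served for quantification. The paper reports many single-base differences between the rice wine strain and S288c, with a tendency to accumulate in duplicated genes. Whether they lowered the counts of that strain or moved reads between paralogues was not tested. Per gene and library, an estimated count and an FPKM were deposited by the authors, as well as a table of comparisons, from which only the FPKM per strain was used here and not the fold changes, p-values or q-values.

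The estimated counts are fragments divided by a library factor. The worth of 1 fragment was the largest step at which the share of whole multiples was within 0.1 of the best (0.797 in BY4741 and 1.25 in the rice wine strain, with 77.7% and 78.1% of the values above 0 and under 1000 whole to within 0.02 of a step). As the remaining values were not whole multiples of a step, no count model was fitted. The unnamed row (0.806% and 0.309% of counts) was left out. Counting errors of a log2 ratio came from the fragments of both terms, with 95% intervals of 1.96 SE. A difference is log2(FPKM + 1) of the rice wine strain minus BY4741, which understates changes of low genes, and 2-fold means at least 1 in size. The fold calculation was tested on simulated data.

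The members and lists were chosen with earlier results of these data known. Named are all members and, of each list, the gene of highest mean FPKM and those at least 2-fold apart. PYK2, GPM3, FBP26, PYC1, PYC2 and MIG1 were named after their values were seen. No gene was named for likeness of pattern, since 2 libraries give each gene 1 difference. Coding and upstream sequences are from the RefSeq R64 genome, in which all 6688 loci that the files place on its nuclear chromosomes lie inside the chromosome ends. Protein sequences were not used here. Alternatives covered pseudocounts, scaling, filters, thresholds and the FPKM of the table of comparisons. Python 3.11.15, NumPy 2.4.6, pandas 2.3.3, SciPy 1.17.1, Biopython 1.88 and matplotlib 3.10.9 were used.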

Additional observations from a re-analysis of the deposited data

How the results depend on the processing

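No paired analysis was possible because there is a single library for either strain, and for the same reason no replicate could be left out. Under 6 alternative settings, 8 of the 10 genes kept their direction and 9 their side of 2-fold. PGI1 ranged from -0.18 to 0.15 and PFK1 from -0.046 to 0.28, and PFK2 from 0.92 to 1.26. HXK1 ranged from -2.24 to -1.71, HXK2 from 1.23 to 1.56, GLK1 from 0.16 to 0.51, EMI2 from 0.12 to 0.46, FBA1 from -0.82 to -0.49, PFK26 from 0.29 to 0.62 and PFK27 from 1.11 to 1.57. When gene counts were brought to the same total, 513 genes exceeded 2-fold upwards and 1070 downwards, against 836 and 661, and 2 members did upwards. The medians of lower glycolysis, opposing enzymes, branches and regulators were then -0.84, -0.62, -0.50 and -0.36. At 4-fold with the deposited scaling, 184 genes were higher and 252 lower, and 0 members passed in either direction. With the FPKM of the table of comparisons, the change of the HXK1 to HXK2 log2 ratio was -3.22, and HXK1 shares its locus there. The other 3 pairs stayed within counting error. The step of the highest share of whole multiples, an alternative chosen after seeing the data, gave a counting SE of 0.046 for the HXK1 to HXK2 change in place of 0.079. That step implies more fragments in the rice wine library than the RNA-Seq reads that the paper reports. Depth limits PFK27 most, with 68 fragments in BY4741.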
